A study of Mus musculus with 6 samples.

Results

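The genes described here write, copy and erase DNA methylation. They are Dnmt1, Uhrf1, Dnmt3a, Dnmt3b, Tet1, Tet2 and Tet3, 7 of the 55335 gene identifiers in the count table, chosen by symbol. All 7 were found, and 6 passed edgeR's filter on low counts. Tet1 did not, and it has no test in that fit.

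Naive CD4 T cells were taken from the spleen of TcfGFP reporter mice, in which GFP reports the Tcf7 locus, and were transferred into Rag1 KO recipients, which cannot make T or B cells. Colitis developed, and CD4 T cells were sorted from the colon lamina propria. The GFP-positive gate (TCF7+, which the labels describe as stem-like) and the GFP-negative gate (TCF7-, described as effector) gave 3 bulk RNA-seq libraries each. Every library thus holds donor cells that carry the reporter and that came from a Rag1 KO host. Nothing in the labels ties a replicate to a mouse of its own, and the spread behind each p-value is that between libraries, which may be technical. The labels give neither the age of the animals nor the number of cells per library. Values listed for a gate are in the order of replicates 1, 2 and 3.

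Methylation of CpG dinucleotides is copied at each cell division. UHRF1 binds CpG sites that carry the mark on the old strand only and brings DNMT1, which marks the new strand. DNMT3A and DNMT3B add methylation at sites that had none, and the TET enzymes oxidise methylcytosine, the first step of its removal. In mouse T cells DNMT3A is known for silencing genes of other lineages and, in CD8 cells that become effectors, Tcf7 itself, while TET2 and TET3 are known for keeping the Foxp3 locus of regulatory T cells free of methylation. Only mRNA was measured here, not methylation.

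Total counts were 4309500 to 7462076 per library, and 3 counts corresponded to 0.43 to 0.69 CPM (counts scaled to a common library total, here that of the tested genes adjusted by TMM, edgeR's normalization factor). Tcf7, the sorted gene, had 187 ± 48.4 CPM in the GFP-positive and 111 ± 35.7 CPM in the GFP-negative libraries (SD, n = 3 each), with no overlap, by a margin of 140.8 against 140.5 CPM, and with an edgeR adjusted p of 0.367. T cell markers, Cd3e and Cd4 among them, held 0.611% to 0.672% of counts in 5 libraries and 0.489% in GFP-positive replicate 3. That library stood apart: all 12 myeloid markers had counts there and held 0.72% of its counts, against 0.0141% to 0.0202% in the other 5. Antigen presentation genes held 0.655% of its counts (at most 0.0427% in the other 5), stromal and endothelial markers 0.0328% (at most 0.00106%), NK and ILC markers 0.0764% (at most 0.0134%) and epithelial markers 0.03% (at most 0.00694%), while all 6 B cell markers were at 0. The part of these transcripts in the results was not tested.

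The clearest difference among the 7 genes was in Uhrf1, with mean CPM 3.36 times as high in GFP-negative as in GFP-positive cells. Dnmt1 and Dnmt3a also had lower means in GFP-positive cells, by ratios of 1.58 and 1.4. Tet2 and Dnmt3b had nearly equal means, and Tet3 lay between, with a ratio of 1.25. None of the 6 tested genes passed an adjusted p of 0.05 in edgeR's quasi-likelihood test with group as the only term, in which 12 of 11074 genes (0.108%) did. At an unadjusted p under 0.05, 3 of the 6 (Uhrf1, Dnmt1 and Dnmt3a) were lower in GFP-positive cells, as were 5.97% of all tested genes; 10.3% were past it in either direction. Uhrf1 alone of the 6 had CPM ranges that did not overlap between the gates, lower in GFP-positive cells, as 8.8% of all tested genes were.

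**Figure D1:**
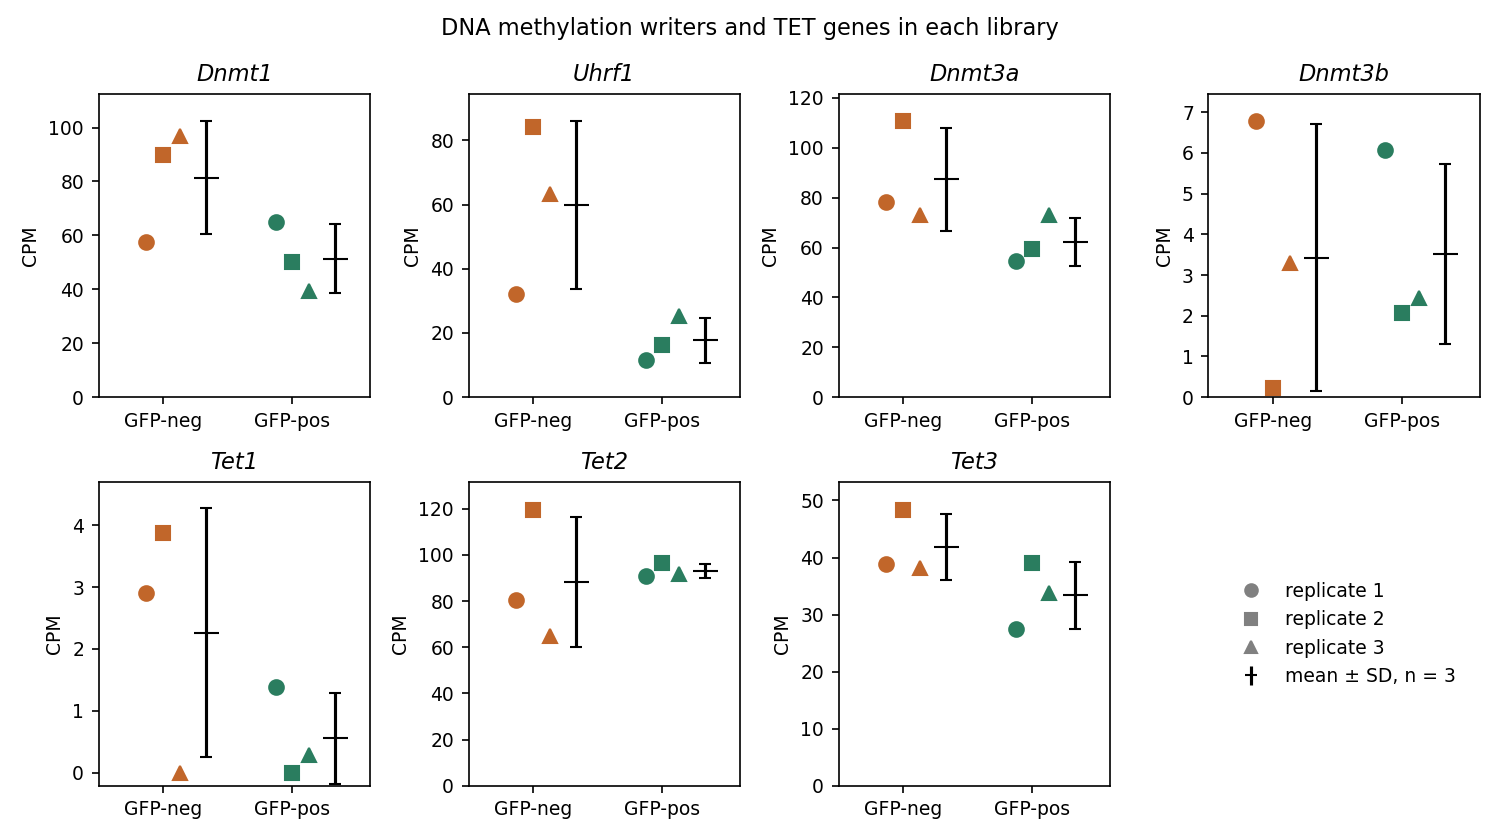
CPM of each of the 7 genes in each library (symbols mark replicates, bars mean ± SD, n = 3), with GFP-negative libraries in orange and GFP-positive ones in green and a linear axis of its own for each gene. Uhrf1 lies at 11.6 to 25.4 CPM in the GFP-positive libraries, below all GFP-negative ones, while the ranges of the other 6 genes overlap between the gates.

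Uhrf1 (ENSMUSG00000001228.14, chromosome 17, 56303321 to 56323486, plus strand, mm10) encodes the adaptor that links replication to maintenance methylation. It had 165, 370 and 288 counts in the GFP-negative libraries and 67, 71 and 177 in the GFP-positive libraries. In CPM these were 32.0, 84.1 and 63.2 in the GFP-negative and 11.6, 16.3 and 25.4 in the GFP-positive libraries. The gates did not overlap, and the closest libraries were GFP-negative replicate 1, the lowest of its gate, and GFP-positive replicate 3, the highest of its gate and the one that stood apart. The log2 fold change was -1.74 ± 0.38 (SE), with an edgeR adjusted p of 0.124 over all genes. In these bulk libraries fewer cells that express a gene and less of its RNA per cell cannot be told apart.

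The call of Uhrf1 depended on the fit, while its direction did not. With the replicate number of the titles as a block, the log2 fold change was -1.71 ± 0.28 with an edgeR adjusted p of 0.0224, in a fit that called 0.731% of tested genes. Without GFP-positive replicate 3 it was -2.09 ± 0.39 with an edgeR adjusted p of 0.0436, where 0.452% of genes were called. DESeq2 gave an adjusted p of 0.00154, with 1.82% of genes called, and edgeR with no filter on low counts gave 3.58e-07, with 1.78% called. Uhrf1 was the only one of the 7 genes that any of the alternatives called. A two-sided exact permutation test on log2(CPM + 1) gave p = 0.1, the smallest value that 3 against 3 libraries allow.

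Dnmt1 (ENSMUSG00000004099.16, chromosome 9, 20907209 to 20959888, minus strand) encodes the maintenance methyltransferase itself. It had 57.6, 89.8 and 96.9 CPM in the GFP-negative libraries and 64.9, 50.1 and 39.2 CPM in the GFP-positive libraries. The ranges overlapped, because GFP-positive replicate 1 exceeded GFP-negative replicate 1. The log2 fold change was -0.66 ± 0.25 (SE), with an edgeR adjusted p of 0.379. It was -0.49 without GFP-positive replicate 3, the lowest library.

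**Figure D2:**
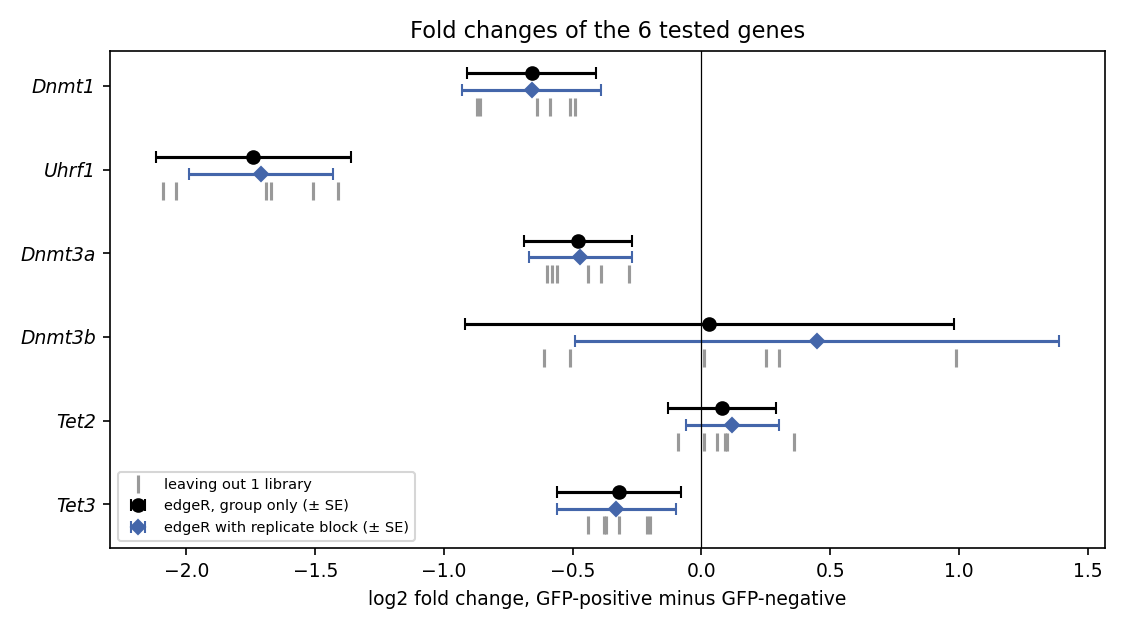
Log2 fold changes (GFP-positive minus GFP-negative) of the 6 tested genes from edgeR with group only (black, ± SE), with the replicate block (blue, ± SE) and with each library left out in turn (grey ticks). Uhrf1 stays between -2.09 and -1.41 when a library is left out, whereas Dnmt3b spans both signs, from -0.61 to 0.99.

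The start regions of these maintenance genes are shown because E2F words, short sequences bound by the factors that switch on S phase genes, were searched in the 250 bases before each annotated start of the 7 genes (RefSeq, GRCm38.p6). All 7 genes matched that table, with 12 start windows in all. The words searched, on both strands, were TTTCCCGC, TTTGGCGC, TTTCGCGC and TTTGCCGC. One window of Uhrf1 and one of Dnmt1 held a word, TTTCGCGC in each case, and no window of Dnmt3a, Dnmt3b, Tet1, Tet2 or Tet3 did. That Dnmt1 window, before the start at 20952623, shares 166 bases with annotated Dnmt1 exons, and the Uhrf1 window, before the start at 56304313, shares none. Of all 32851 windows of this length, 1.86% held at least one of the words, and of the 19 windows of 17 S phase genes 26.3% did, those of Cdc6, Mcm5, Mcm6, Mcm7 and Pola1. These matches are letters in a window, not measured binding sites. In the sequences the word is in capitals, and in Dnmt1 it reads on the opposite strand. The Uhrf1 window is chr17:56304063-56304312, plus strand, and the Dnmt1 stretch of 30 bases is chr9:20952824-20952853, minus strand.
Uhrf1: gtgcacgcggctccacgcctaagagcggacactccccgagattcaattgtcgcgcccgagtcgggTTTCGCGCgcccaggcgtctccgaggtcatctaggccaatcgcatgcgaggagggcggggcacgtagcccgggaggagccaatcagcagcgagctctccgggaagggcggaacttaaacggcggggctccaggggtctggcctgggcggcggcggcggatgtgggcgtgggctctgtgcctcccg
Dnmt1: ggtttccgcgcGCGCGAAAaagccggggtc

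The Uhrf1 window above holds 30 CpG dinucleotides, more than 94.1% of all windows, and the Dnmt1 window with the word holds 26. The CpG count differed widely between the genes and between starts of the same gene. The Tet2 window held 51, more than 99.9% of all windows, and the windows of Dnmt3a held 15 to 40. A more distant Dnmt1 start, at 20959888, had 2. The median was 19 over the 12 windows, 17 over those of the S phase genes and 6 over all windows. Each E2F word searched holds a CG, so the 1.86% of all windows is not a share among windows alike in CpG count. A second searched word, TTTGAA, which is found at genes of the G2 and M phases, was in 16.7% of the 12 windows and in 16.0% of all windows.

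The levels of the maintenance genes were set beside those of S phase genes, since both are known to be expressed in dividing cells. The mean log2(CPM + 1) of 20 tested S phase genes was 5.06, 5.73 and 6.01 in the GFP-negative libraries and 4.47, 4.70 and 5.01 in the GFP-positive libraries. GFP-negative replicate 1, the lowest of its gate in Uhrf1 and in Dnmt1, was the lowest in these genes as well. Of the 20 genes 19 lay below 0 in log2 fold change (median -0.82, against 0.016 for all tested genes), and 0 passed edgeR's adjusted threshold. At an unadjusted edgeR p under 0.05, 13 were lower in GFP-positive cells, as were 5.97% of all tested genes. With the replicate block 5 were called lower, Mcm6, Tyms, Rrm1, Rrm2 and Cdc6, in a fit that called 0.731% of tested genes. DESeq2 called 4, with 1.82% of all genes called. Cdc6, which loads the replicative helicase, had 26.8 ± 8.99 CPM in GFP-negative and 7.59 ± 2.29 CPM in GFP-positive libraries (SD, n = 3 each). Tyms, which makes thymidylate, had 88.6 ± 27.7 and 37.9 ± 3.92 CPM.

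Relative to the mean of the S phase genes, Uhrf1 was lower in each GFP-positive library than in any GFP-negative one, while the ranges of Dnmt1 overlapped. The difference between log2(CPM + 1) of Uhrf1 and the S phase mean was -0.02, 0.68 and -0.01 in the GFP-negative libraries and -0.82, -0.58 and -0.29 in the GFP-positive libraries. These ranges did not overlap, and their means differed by -0.78 (two-sided exact permutation p = 0.1, the smallest possible). For Dnmt1 the same difference was 0.81, 0.77 and 0.60 in the GFP-negative and 1.57, 0.98 and 0.32 in the GFP-positive libraries, with overlap (two-sided exact permutation p = 0.7). The means of Dnmt1 differed by 0.23, a value of 0.55 with GFP-positive replicate 3 left out and of -0.08 when replicate 1 of that gate was left out. Tet2 was higher in GFP-positive cells on this relative scale, by 1.0, with no overlap (two-sided exact permutation p = 0.1), and by 0.6 without GFP-negative replicate 3. Its own log2(CPM + 1) differed by only 0.12 between the gates, the rest of the difference being that of the S phase mean. That mean did not overlap between the gates, at 5.06 or more in GFP-negative and 5.01 or less in GFP-positive libraries. A gene of even level thus tends to come out higher in GFP-positive cells on this scale, and the lack of overlap is not particular to Tet2. The 6 tested genes were compared in this way, and none could pass 0.05 in a design whose smallest p is 0.1. How many other genes, single S phase genes among them, separate the gates on this scale was not counted. Cdc6, one of the 20 S phase genes, had a log2 fold change of -1.81, beside -1.74 for Uhrf1. Whether the share of dividing cells accounts for the level of Uhrf1 was not tested.

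**Figure D3:**
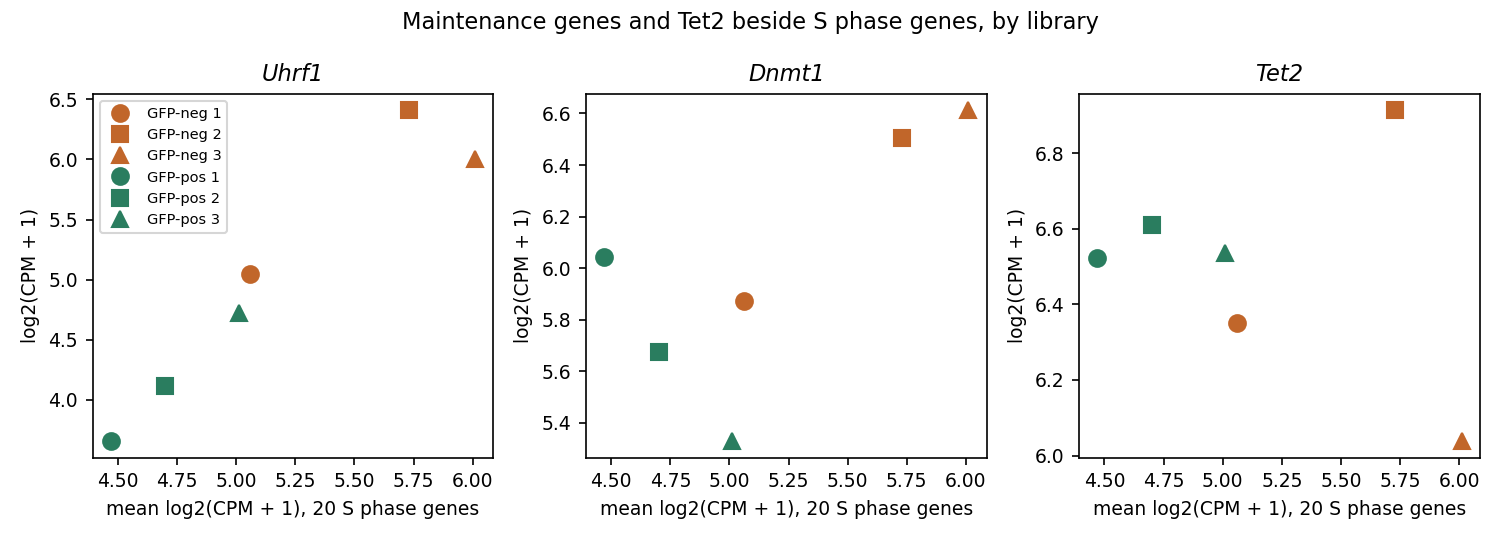
Log2(CPM + 1) of Uhrf1, Dnmt1 and Tet2 in each library against the mean log2(CPM + 1) of 20 S phase genes in the same library, with GFP-negative libraries in orange, GFP-positive ones in green and replicates by symbol. GFP-negative replicate 1 and GFP-positive replicate 3 have nearly the same S phase mean, 5.06 and 5.01, and 32.0 and 25.4 CPM of Uhrf1. They have 57.6 and 39.2 CPM of Dnmt1 and 80.6 and 91.8 CPM of Tet2. GFP-positive replicate 3 is the library that stood apart in myeloid and antigen presentation markers.

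G2 and M phase genes, 16 of 16 of them tested, all lay below 0 in log2 fold change (median -1.2), and 0 passed edgeR's adjusted threshold. At an unadjusted edgeR p under 0.05, 10 were lower in GFP-positive cells, beside 5.97% of all tested genes. With the replicate block 6 were called lower, Mki67, Top2a, Ccnb2, Ccna2, Aurkb and Birc5, beside 0.731% of all tested genes called. Ccnb2, a cyclin of mitotic entry, had 109.9 ± 55.9 CPM in GFP-negative and 33.9 ± 11.3 CPM in GFP-positive libraries (SD, n = 3 each). The log2 fold change of Uhrf1, -1.74, lay at the low end of the cell cycle genes. The lowest S phase gene was Cdc6 (-1.81) and the lowest G2 and M phase gene was Ccnb2 (-1.69). The log2 fold change of Dnmt1, -0.66, was smaller in size than the median of both lists.

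Among the partners of maintenance methylation, none of 9 tested genes passed edgeR's adjusted threshold, nor did DESeq2 call any, and 6 of 9 were negative. At an unadjusted edgeR p under 0.05 there was 1, beside 10.3% of all tested genes in either direction. Their median of -0.18 moved with single libraries, to -0.03 when GFP-negative replicate 3 was dropped, to -0.33 when replicate 2 of the GFP-positive gate was, and to -0.07 when its replicate 1 was. Lig1, the DNA ligase of replication, whose protein is bound by UHRF1, had 53.2 ± 20.1 CPM in GFP-negative and 25.9 ± 10.1 CPM in GFP-positive libraries (SD, n = 3 each; log2 fold change -1.04). Cdca7, which works with the remodeller HELLS in methylation of repeats, had 23.9 ± 9.06 and 14.1 ± 3.97 CPM, while Hells itself had 86.1 ± 15.8 and 76.3 ± 17.0 CPM. Usp7, a deubiquitinase that stabilises DNMT1 and UHRF1, had 23.2 ± 10.4 and 32.2 ± 10.3 CPM. Uhrf2, the relative of Uhrf1, had 93.9 ± 15 and 76.2 ± 24.2 CPM (log2 fold change -0.30, edgeR adjusted p = 0.727). Dnmt3l and Dppa3, a cofactor of de novo methylation and an inhibitor of UHRF1 known from germ cells and embryos, had 0 counts in all 6 libraries.

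Dnmt3a (ENSMUSG00000020661.15, chromosome 12, 3806007 to 3914443, plus strand) encodes the main de novo methyltransferase of mature T cells. It had 78.1, 110.7 and 73.0 CPM in the GFP-negative libraries and 54.6, 59.5 and 73.1 CPM in the GFP-positive libraries. The gates overlapped by a narrow margin, GFP-positive replicate 3 exceeding GFP-negative replicate 3. The log2 fold change was -0.48 ± 0.21 (SE), with an edgeR adjusted p of 0.454. It was -0.28 without GFP-negative replicate 2, the highest library, and -0.60 without GFP-positive replicate 3. The table has 1 value for the gene, so its long and short protein forms, which start from different promoters, cannot be told apart. Its exons share 133 bases with the antisense transcript Dnmt3aos, which had 0 counts in every library.

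Dnmt3b (ENSMUSG00000027478.15, chromosome 2, 153649450 to 153687730, plus strand), the other de novo enzyme, known for its role in embryos, was rare and uneven. It had 35, 1 and 15 counts in the GFP-negative libraries and 35, 9 and 17 counts in the GFP-positive libraries. A single count in GFP-negative replicate 2 lay under the level that 3 counts mark. Both gates had a library with 35 counts, so the spread within a gate exceeded the difference between them (log2 fold change 0.03 ± 0.95, edgeR adjusted p = 0.994). The direction turned when GFP-negative replicate 2 (-0.51) or GFP-positive replicate 1 (-0.61) was left out, and the value was 0.99 when GFP-negative replicate 1 was, and 0.3 or 0.25 when replicate 2 or 3 of the GFP-positive gate was.

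Of the erasers, Tet2 (ENSMUSG00000040943.12, chromosome 3, 133463679 to 133545139, minus strand) had the highest TPM. In CPM it had 80.6, 119.6 and 64.7 CPM in the GFP-negative libraries and 90.9, 96.6 and 91.8 CPM in the GFP-positive libraries. The 3 GFP-positive libraries lay close together within the range of the GFP-negative ones, with an SD of 3.03 against 28.3 CPM. The log2 fold change was 0.08 ± 0.21 (SE), with an edgeR adjusted p of 0.938, and it ranged from -0.09 without GFP-negative replicate 3 to 0.36 without GFP-negative replicate 2. Its exons share 43 bases with the antisense gene Gm42567, which had 0 counts.

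Tet3 (ENSMUSG00000034832.15, chromosome 6, 83362373 to 83459084, minus strand), which acts beside TET2 in T cells, had 38.8, 48.4 and 38.2 CPM in the GFP-negative libraries. In the GFP-positive libraries it had 27.4, 39.1 and 33.7 CPM. The gates overlapped only through GFP-positive replicate 2, and the log2 fold change was -0.32 ± 0.24 (SE) with an edgeR adjusted p of 0.711. Tet1 (ENSMUSG00000047146.17, chromosome 10, 62804570 to 62908996, minus strand), the eraser best known from embryonic stem cells, had 15, 17 and 0 counts in GFP-negative and 8, 0 and 2 counts in the GFP-positive libraries. Each gate had a library with 0 counts, which allows up to 0.658 CPM (GFP-negative replicate 3) or 0.69 CPM (GFP-positive replicate 2), and Tet1 stayed under the filter of the test. With no filter on low counts edgeR gave it an adjusted p of 0.683.

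Levels of different genes were compared in the deposited TPM, which is per length. In GFP-negative cells the order was Uhrf1 at 41.1 ± 18.8 TPM, Dnmt1 at 32.2 ± 8.38, Dnmt3a at 15.3 ± 4.0, Tet2 at 15.3 ± 5.3, Tet3 at 7.31 ± 1.2, Dnmt3b at 1.94 ± 1.85 and Tet1 at 0.431 ± 0.387 TPM (SD, n = 3). In GFP-positive cells it was Dnmt1 at 19.7 ± 6.41 TPM, Tet2 at 15.4 ± 1.25, Uhrf1 at 11.4 ± 3.6, Dnmt3a at 10.4 ± 0.777, Tet3 at 5.56 ± 0.899, Dnmt3b at 1.97 ± 1.37 and Tet1 at 0.105 ± 0.143 TPM. Uhrf1 stood at the head of the order in the GFP-negative gate and below Dnmt1 and Tet2 in the GFP-positive gate. The neighbours Uhrf1 and Dnmt1, Dnmt3a and Tet2, and Dnmt3b and Tet1 had overlapping TPM ranges in GFP-negative cells. In GFP-positive cells the ranges of Dnmt1, Tet2, Uhrf1 and Dnmt3a overlapped from each to the next. Over all libraries Uhrf1 and Dnmt1 were above 59.7% and 59.4% of tested genes in mean TPM, Tet2 above 44.6%, Dnmt3a above 39.8%, Tet3 above 23.2% and Dnmt3b above 4.53%.

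Ratios within a library remove the library's own scaling. The TPM ratio of Tet2 to Dnmt3a was 1.02, 1.07 and 0.874 in the GFP-negative libraries and 1.64, 1.6 and 1.24 in the GFP-positive libraries, with no overlap between the gates. The ratio of Tet2 to Tet3 was 2.06 ± 0.383 and 2.81 ± 0.433 (SD, n = 3 each). The TPM ratio of Uhrf1 to Dnmt1 was 0.962, 1.62 and 1.13 in the GFP-negative and 0.309, 0.564 and 1.12 in the GFP-positive libraries. It overlapped through GFP-positive replicate 3, the library that stood apart. The summed TPM of Dnmt1, Dnmt3a and Dnmt3b over that of the TET genes was 1.9, 1.84 and 2.97 in the GFP-negative and 1.86, 1.34 and 1.36 in the GFP-positive libraries, also with overlap. These ratios were chosen after the levels were seen and carry no test.

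**Figure D4:**
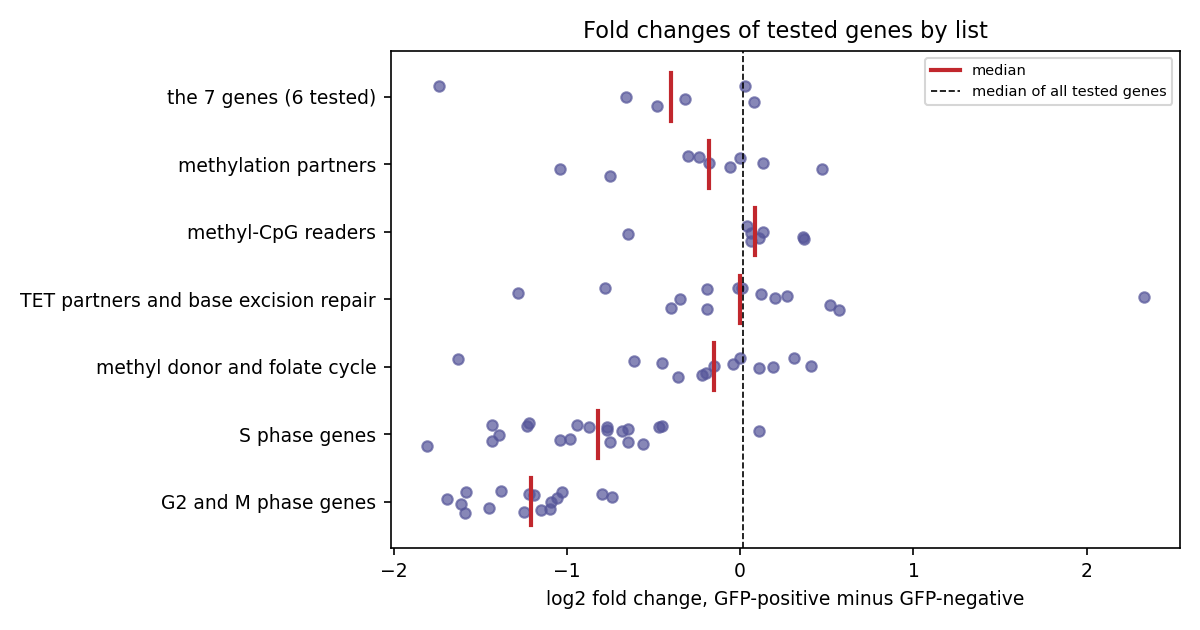
Log2 fold change (GFP-positive minus GFP-negative) of each tested gene by list, with the median of each list in red and the median of all tested genes as a dashed line at 0.016. The medians of the S phase and of the G2 and M phase genes are -0.82 and -1.2. Those of the readers with their relatives and of the TET partners and repair genes are 0.08 and 0.00.

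Of 8 genes listed as readers of methylated cytosine or as their relatives, 7 lay above 0 in log2 fold change (median 0.08). Of these genes 0 passed edgeR's adjusted threshold. At an unadjusted edgeR p under 0.05 there was 1, where 10.3% of all tested genes were past it in either direction. The exception in sign was Mbd3, a relative of the readers and a subunit of the NuRD complex. It had 27.9, 40.5 and 36.2 CPM in GFP-negative and 23.7, 17.5 and 25.2 CPM in the GFP-positive libraries, with no overlap (edgeR adjusted p = 0.437). Of all tested genes 8.8% were lower in GFP-positive cells without overlap. Mbd4, a glycosylase that repairs deaminated methylcytosine, had 12.2 ± 1.99 and 15.7 ± 4.15 CPM in GFP-negative and GFP-positive libraries (SD, n = 3 each), and Zbtb38, a zinc finger reader, 103 ± 9.86 and 113 ± 5.88 CPM.

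Of 14 tested TET partners and base excision repair genes, 7 were positive and 7 negative, and 0 passed the adjusted threshold in edgeR or DESeq2. At an unadjusted edgeR p under 0.05, 2 were higher and 2 lower, beside 10.3% of all tested genes in either direction. Their log2 fold changes ran from -1.28 to 2.33. Tdg, the glycosylase that removes cytosines oxidised by TET enzymes, had 26.4, 33.4 and 25.7 CPM in GFP-negative and 13, 23 and 13.9 CPM in the GFP-positive libraries. Its ranges did not overlap (log2 fold change -0.78, edgeR adjusted p = 0.419), as for 8.8% of all tested genes in this direction. Neil3, a glycosylase known from dividing cells, had 17.4 ± 8.71 and 7.13 ± 3.57 CPM, and Gadd45g, a stress gene linked to demethylation, 86.5 ± 23.0 and 128 ± 28.2 CPM (SD, n = 3 each). In Gadd45a, GFP-positive replicate 3, the library that stood apart, had 21.1 CPM and the other 5 libraries 0.877 to 2.53 CPM; it is named here because that library sets its value.

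The 13 tested genes that supply the methyl donor and folate had a median of -0.15, which also moved with single libraries, to -0.03 when GFP-negative replicate 2 was dropped, and to -0.04 or -0.06 when replicate 3 or 1 of the GFP-positive gate was. Of these genes 0 passed edgeR's adjusted threshold. At an unadjusted edgeR p under 0.05 there was 1, against 10.3% of all tested genes in either direction. Mat2a, which makes the methyl donor S-adenosylmethionine, had 263 ± 43.2 and 348 ± 108 CPM (SD, n = 3 each), with GFP-positive replicate 1 at 466.6 CPM. Ahcyl1, a relative of the hydrolase that clears the spent donor, had 52.4 ± 4.87 and 38.4 ± 16.5 CPM.

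Loci for which control by DNMT or TET enzymes is known in T cells formed a further list. Of 7 tested, 6 were negative and 0 passed edgeR's adjusted threshold. At an unadjusted edgeR p under 0.05, 2 were lower and 1, Tcf7, was higher, where 10.3% of all tested genes were past it in either direction. Foxp3, the factor of regulatory T cells, had 67, 145 and 11 counts in GFP-negative and 0, 0 and 6 counts in the GFP-positive libraries. Ifng, the Th1 cytokine, had 604 ± 158 and 379 ± 55.8 CPM in GFP-negative and GFP-positive libraries (SD, n = 3 each). Its ranges did not overlap, nor did those of 8.8% of all tested genes in the same direction. With the replicate block Ifng, Il17a and Cd8a were called lower, in a fit that called 0.731% of tested genes. Tcf7 was the positive one, and it is the gene of the sort. Germline genes that are silenced by promoter methylation in somatic cells were at or near 0: of 9, Dazl, Mael, Sycp1, Sycp3, Tex101, Asz1 and Tdrd1 had 0 counts in all 6 libraries. Ddx4 and Brdt had 10 and 3 counts, all in GFP-positive replicate 3.

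Genes most like each member were taken by the highest Pearson r of log2(CPM + 1) over the 6 libraries, among 6456 genes with a mean of at least 20 CPM. For Uhrf1 they were Ehd1 (r = 0.996) and Psmb5 (r = 0.991), and for Dnmt1 Actr3 (r = 0.994) and Cenpa (r = 0.985). For Dnmt3a they were Fam91a1 (r = 0.991) and Rtca (r = 0.981), for Dnmt3b Mapk1ip1l and Rcor3, for Tet2 Yod1 and Ust, and for Tet3 Tprgl and Snai3. With 6 libraries in 2 gates many genes reach such values, 144 exceeding 0.9 for Uhrf1, 108 for Dnmt1, 43 for Dnmt3a and 29 for Tet2. Of 26 cell cycle genes in this comparison, 11 exceeded 0.9 with Uhrf1, 2 with Dnmt1 and 0 with Dnmt3a, Dnmt3b, Tet2 or Tet3. These correlations are a description over libraries that share the gates.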

How the data were processed

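Gene counts and TPM were read for 6 libraries, grouped by their titles. The submitters' processing notes list deepTools 3.5.1, SAMtools 1.17, STAR 2.7.10b and fastp 0.23.3, and the build mm10; which tool counted was not given in the sources used here. Both tables, raw counts and TPM, are as the authors deposited them. Between 3.65% and 7.82% of counts belong to genes absent from the TPM table. Per the labels' protocols cDNA was amplified by PCR, with no strand marking or molecular identifiers described, so floors from counts cover counting error only.

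Counts were tested with edgeR 4.0.16 (R 4.3.3; quasi-likelihood F-test, robust, TMM, default filter with minimum count 10, group only), with Benjamini-Hochberg adjustment over all 11074 tested genes. SE values derive from the fold change and F. TPM served to compare levels between genes. DESeq2 1.42.0 and limma 3.58.1 were alternatives, and the tests were checked on simulated data. No libraries were duplicates (chi-square per degree of freedom at least 10.7). Deviations from the gate mean of log2(CPM + 1) correlated across genes at r = 0.108, 0.102 and 0.11 between same-numbered libraries of the 2 gates. Libraries of unlike number gave r from -0.133 to 0.0249. The same-numbered values were narrowly above the limit of 0.1 set for treating the numbers as pairs. The labels give no source for a pairing, and the main fit kept group as its only term, with the replicate block as an alternative. Loci are those of GENCODE M21 on mm10. Genes and lists were chosen with earlier results of these data known. Named genes are the 7, Tcf7, up to 3 per list by unadjusted p, all that passed, and the 2 most alike. Other genes named from the lists were chosen after their values were seen. They are Uhrf2, Hells, Gadd45a, the markers named for GFP-positive replicate 3, those listed at 0 and those called only in an alternative. One gene of the donor and folate list is not reported here.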

Additional observations from a re-analysis of the deposited data

How the results depend on the processing

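Of 456 recomputed values, 416 kept their direction and their side of the threshold or stayed within the spread between libraries. Uhrf1 passed the adjusted threshold with no filter on low counts (log2 fold change -1.75), with the replicate block (-1.71), in DESeq2 (-1.73) and without GFP-positive replicate 3, making 1 of the 7 genes called in each; without single libraries it ranged from -2.09 to -1.41 and the count from 0 to 1. The adjusted p of Uhrf1 ranged from 3.58e-07 to 0.626. With no filter 1 partner, 1 donor gene, 10 S phase, 8 G2 and M phase genes and 3 T cell loci were called. That fit called 1.78% of all its genes. The same counts were 0, 0, 5, 6 and 3 with the replicate block (0.731% of genes called). In DESeq2 they were 0, 1, 4, 6 and 1 (1.82% called). Without single libraries 0 to 1 S phase and 0 to 2 G2 and M phase genes were called, the most without GFP-negative replicate 1. The block changed no other call among these results. The cause of these differences was not tested.

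Direction turned for weak differences when single libraries were left out. The log2 fold change ranged from -0.61 to 0.99 for Dnmt3b and from -0.09 to 0.36 for Tet2. The difference of mean log2(CPM + 1) ranged from -0.46 to 0.87 for Dnmt3b and from -0.08 to 0.36 for Tet2, and relative to S phase genes from -0.08 to 0.55 for Dnmt1. Over all genes, calls ranged from 0 without GFP-positive replicate 1, or in log2(TPM + 1), to 373 with no filter. Counts of 0 to 35 limit Dnmt3b and Tet1.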
